A study of Homo sapiens with 9 samples.

Results

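The genes described here are 10 genes of the MHC class II presentation pathway, which were chosen from values measured on these same arrays, among them how far they differed between the groups. They are HLA-DRA, HLA-DPA1, HLA-DPB1 and HLA-DQB1 among the presenting chains, HLA-DMA, HLA-DMB, HLA-DOA and CD74 among the loading factors and chaperones, and CIITA and RFX5 among the regulators. All 10 had a probe set on the arrays, out of 19934 genes tested. Total RNA of WM793TR cells, a human melanoma line of vertical growth phase with mutant BRAF, was hybridized to 9 single-colour arrays, and the values are log2 expression after RMA. Cells labelled as overexpressing TWIST1 carried a TWIST1 shRNA and a CMV-driven TWIST1 rescue construct (shTWIST1 + TWIST1), cells labelled as knockdown carried the TWIST1 shRNA alone (shTWIST1), and cells labelled basal were read as those with a control shRNA (shControl). Each group had 3 arrays, and all cells had been given doxycycline at 100 ng/mL for 96 h, so no group was without the drug. All groups derive from 1 cell line, and no label says that the replicates were separate cultures, so the spread between arrays may be partly technical.

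MHC class II molecules are pairs of an alpha and a beta chain that display peptides from the endosomal route to CD4+ T cells. New pairs are held by the invariant chain, encoded by CD74, until HLA-DM exchanges the fragment left in the groove for a peptide, and HLA-DO restrains HLA-DM. Dendritic cells, B cells and macrophages carry class II constitutively, whereas many melanomas express it in the tumour cells themselves. Transcription of these genes depends on CIITA, a coactivator that does not bind DNA itself and is recruited to the X and Y boxes of their promoters by the RFX complex, of which RFX5 is a subunit, and by CREB and NF-Y.

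The promoter sequences below are shown because CIITA is recruited to X and Y boxes, and promoter sequence was not part of how the genes were chosen. They were read from RefSeq promoter windows (GRCh38.p14), each of which was searched over the 250 bases before the gene's start, and 8 of the 10 genes had at least 1 window, 11 windows in all (RFX5 had 3 and HLA-DPA1 had 2). Capitals mark an X core, with the letters CCNAGNNAC, and a Y core, with the letters CCAAT on either strand, so that a Y core on the other strand reads ATTGG. The letters of the X core were set after these windows had been read. Each line is written 5′ to 3′ on the strand of the gene.
HLA-DQB1: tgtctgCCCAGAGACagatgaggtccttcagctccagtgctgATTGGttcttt
HLA-DMA: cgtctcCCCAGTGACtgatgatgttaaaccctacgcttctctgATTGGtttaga
HLA-DOA: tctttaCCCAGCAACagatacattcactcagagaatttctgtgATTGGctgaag
CD74: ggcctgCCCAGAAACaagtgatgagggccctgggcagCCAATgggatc
HLA-DMB: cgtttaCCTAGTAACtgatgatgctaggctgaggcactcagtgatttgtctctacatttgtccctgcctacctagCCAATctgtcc
HLA-DPA1: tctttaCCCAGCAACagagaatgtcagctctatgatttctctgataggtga
HLA-DPB1: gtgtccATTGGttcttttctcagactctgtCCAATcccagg

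These stretches lie at chr6:32666735-32666787 (minus strand) for HLA-DQB1, chr6:32953166-32953219 (minus strand) for HLA-DMA, chr6:33009648-33009701 (minus strand) for HLA-DOA, chr5:150412953-150413000 (minus strand) for CD74, chr6:32941040-32941125 (minus strand) for HLA-DMB, chr6:33073707-33073757 (minus strand) for HLA-DPA1 and chr6:33075885-33075925 (plus strand) for HLA-DPB1. An X core followed by a Y core with 15 to 40 bases between them was found in HLA-DQB1 (27 bases between), HLA-DMA (28 bases), HLA-DOA (28 bases) and CD74 (22 bases). This order and spacing occurred in 4 of these 11 windows, in 92 of all 35116 windows, or 0.262%, and in none of the windows of 6 other class II genes (HLA-DRB1, HLA-DRB5, HLA-DQA1, HLA-DQA2, HLA-DQB2 and HLA-DOB). The X core, searched on both strands, was in 7 of the 11 windows and in 13.7% of all windows, and the Y core was in 7 of the 11 and in 32.0% of all. Of the 6 other class II genes, 1 held the X core and 6 held the Y core. In HLA-DPA1 no Y core matched and in HLA-DPB1 no X core matched. Like the lack of a matching pair in the 6 other class II genes, this says only that these letters are not in these windows. Since the X core letters were set after these windows had been read, the shares are a description and nothing is read from them. TWIST1 is a basic helix-loop-helix factor of a class known to bind E-boxes, and the E-box letters CANNTG were in 6 of the 11 windows and in 61.8% of all windows. Of the 8 listed genes with a window 5 held an E-box, and HLA-DMA, HLA-DOA and HLA-DPB1 held none. Of the 6 other class II genes 4 held one. In HLA-DQB1 the stretch shown holds an E-box that starts 116 bases before the gene's start, and in CD74 one that starts 76 bases before it, each sharing the last letter of the X core, and in HLA-DMB the stretch holds one that starts 43 bases before the start, apart from both cores. A match of this kind is a description of the sequence and not a bound site.

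TWIST1 itself was high with the rescue construct, so that the construct took it past its basal level. Its log2 expression was 8.75, 8.90 and 8.27 in shTWIST1 + TWIST1 cells, 6.18, 6.22 and 6.28 in shTWIST1 cells, and 6.77, 7.10 and 7.15 in shControl cells. The 3 groups did not overlap. TWIST1 was 3.10-fold higher in shTWIST1 + TWIST1 than in shControl cells (log2 fold change 1.63, standard error 0.16, limma with Benjamini-Hochberg adjustment, adjusted p = 0.00199) and 5.32-fold higher than in shTWIST1 cells (adjusted p = 0.000291). With the shRNA alone it was 1.72-fold lower than in shControl (log2 fold change -0.78, standard error 0.16, adjusted p = 0.293 over all genes, so not called), although all 3 shTWIST1 arrays were below all 3 shControl arrays. The comparisons with the rescue construct therefore set a raised level of TWIST1 against 2 lower ones. No group is described as carrying a CMV construct without TWIST1. An effect of the construct itself, or of making the line, thus cannot be told apart from one of TWIST1.

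In shTWIST1 + TWIST1 cells most of the class II genes were low, while the shTWIST1 and shControl arrays overlapped for all 10. Against shControl, 8 of the 10 genes were lower and passed the limma threshold of 0.05, beside 1.55% of all genes called lower and 2.62% called either way. Against shTWIST1, 7 of the 10 did, beside 1.77% of all genes called lower and 3.42% called either way. None of the 10 was called in shTWIST1 against shControl, where 0.0652% of all genes were. None reached an unadjusted limma p under 0.05 there, beside 1320 of all 19934 genes. The genes were chosen with these contrasts known, so nothing is read from these counts and no p is given for a single one of them. The median log2 fold change of the 10 genes was -1.97 against shControl, -1.70 against shTWIST1 and -0.24 for shTWIST1 against shControl, beside 0.02, 0.01 and 0.02 over all genes. The comparisons share groups, so they are not independent of each other.

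**Figure D1:**
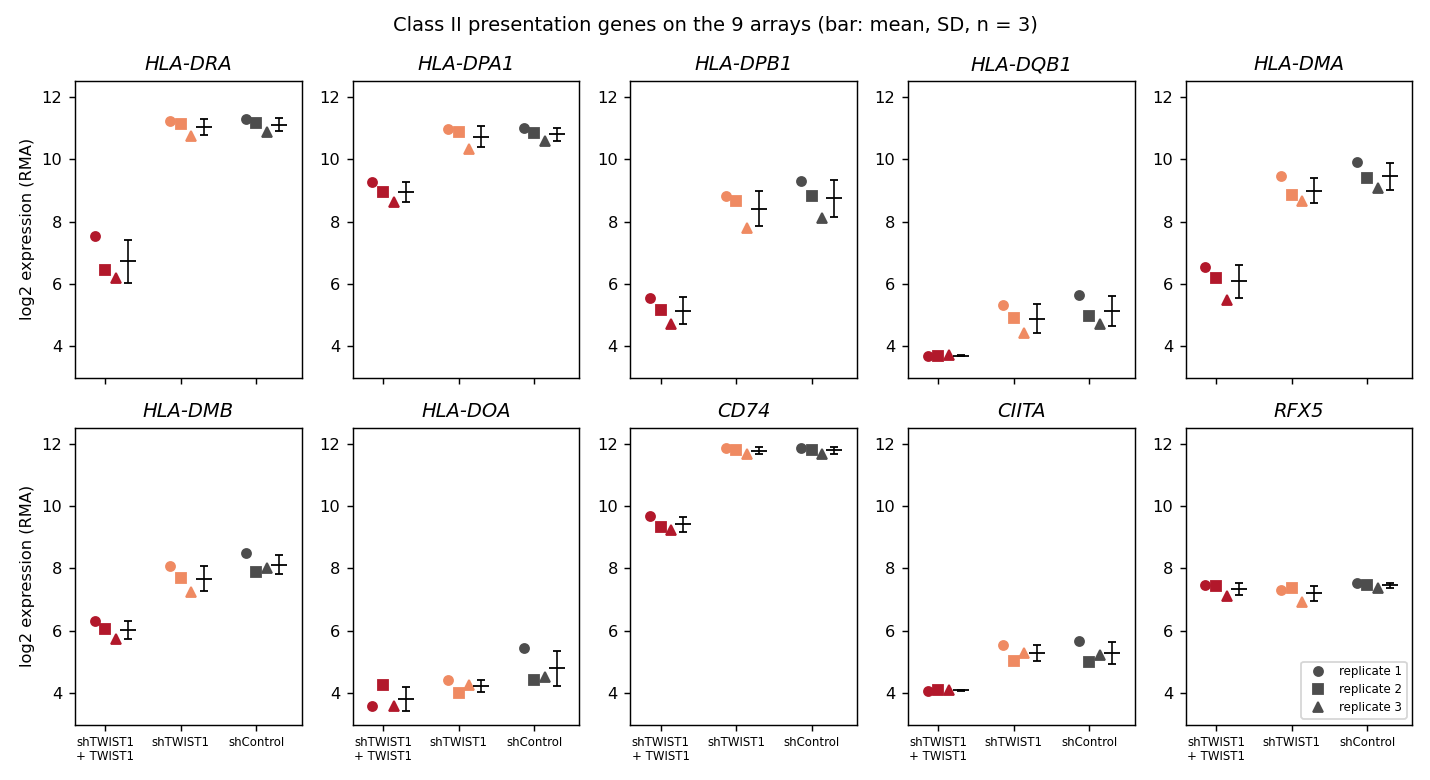
Log2 expression (RMA, vertical axis) of each of the 10 genes on the 9 arrays, with groups along the horizontal axis, one symbol per replicate number and the mean with its SD (n = 3) beside the points. The 3 shTWIST1 + TWIST1 arrays lie below the other 6 for all genes except HLA-DOA and RFX5.

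Among the presenting chains, HLA-DRA, which encodes the alpha chain shared by all HLA-DR molecules, showed the widest difference. Its log2 expression was 7.52, 6.43 and 6.21 in shTWIST1 + TWIST1 cells, 11.23, 11.12 and 10.74 in shTWIST1 cells, and 11.29, 11.14 and 10.87 in shControl cells. All 3 arrays with the rescue construct were more than 3 log2 units below every other array, and the shTWIST1 and shControl arrays overlapped. HLA-DRA was 20.8-fold lower in shTWIST1 + TWIST1 than in shControl cells (log2 fold change -4.38, standard error 0.32), which left 4.80% of the shControl level and was the lowest log2 fold change of all genes tested. The 3 pairs of arrays with the same replicate number gave -3.77, -4.71 and -4.66. Against shTWIST1 the log2 fold change was -4.31 (standard error 0.32), and for shTWIST1 against shControl it was -0.07 (standard error 0.32). The shTWIST1 and shControl values lay between percentiles 99.5 and 99.8 of their arrays, where probe signal can level off, and its part was not tested.

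HLA-DPB1 encodes the beta chain of HLA-DP. Its values were 5.56, 5.16 and 4.73 in shTWIST1 + TWIST1 cells, 8.81, 8.64 and 7.79 in shTWIST1 cells, and 9.29, 8.82 and 8.12 in shControl cells. The arrays with the rescue construct were again the 3 lowest, while the other groups overlapped. It was 12.1-fold lower than in shControl (log2 fold change -3.59, standard error 0.37), the third lowest value of all genes, and the log2 fold change was -3.27 against shTWIST1 and -0.33 for shTWIST1 against shControl. Its value in shTWIST1 + TWIST1 replicate 3, 4.73, was under the median of that array, 4.76.

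HLA-DPA1, whose product pairs with that of HLA-DPB1, kept more of its signal. It was at 9.26, 8.96 and 8.61 in shTWIST1 + TWIST1 cells, 10.96, 10.87 and 10.32 in shTWIST1 cells, and 10.99, 10.83 and 10.57 in shControl cells. The groups with and without the construct did not overlap. The log2 fold change was -1.85 (standard error 0.21) against shControl, or 27.7% of the shControl level, where HLA-DPB1 kept 8.29%. It was -1.78 against shTWIST1 and -0.08 for shTWIST1 against shControl, whose values lay between percentiles 99.2 and 99.7 of their arrays. Probe sets compress differences at their dim and bright ends to unlike degrees, so how far the alpha and the beta chain of HLA-DP differ in their RNA was not tested.

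HLA-DQB1 encodes the beta chain of HLA-DQ. Its values were 3.70, 3.69 and 3.74 in shTWIST1 + TWIST1 cells, 5.34, 4.90 and 4.42 in shTWIST1 cells, and 5.66, 4.98 and 4.73 in shControl cells. The arrays with the construct lay within 0.1 of each other and below the other 6. They were also below the medians of the arrays, which ranged between 4.73 and 4.79. The log2 fold change was -1.41 (standard error 0.27) against shControl, -1.18 against shTWIST1, where it was not called, and -0.24 for shTWIST1 against shControl. The call against shControl was lost when shTWIST1 + TWIST1 replicate 1, 2 or 3, shTWIST1 replicate 2, or shControl replicate 1 or 2 was left out, with log2 fold changes no nearer 0 than -1.14 over all settings tried.

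Of the 4 loading and chaperone genes, 3 were called lower with the construct in both comparisons, and HLA-DOA was lower on average in both but not called. HLA-DMA, the alpha chain of HLA-DM, was at 6.55, 6.20 and 5.50 in shTWIST1 + TWIST1 cells, 9.45, 8.86 and 8.67 in shTWIST1 cells, and 9.92, 9.38 and 9.06 in shControl cells. The rescue arrays lay apart from the other 6, and each shTWIST1 array lay below the shControl array of the same number. It was 10.3-fold lower than in shControl (log2 fold change -3.37, standard error 0.32), the fourth lowest of all genes. On the same scale it differed by -2.91 against shTWIST1 and -0.46 for shTWIST1 against shControl.

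HLA-DMB, the beta chain of HLA-DM, was at 6.31, 6.07 and 5.74 in shTWIST1 + TWIST1 cells, 8.07, 7.71 and 7.25 in shTWIST1 cells, and 8.49, 7.89 and 8.00 in shControl cells. Its arrays with the construct were the 3 lowest, and shTWIST1 and shControl overlapped. It was 4.25-fold lower than in shControl (log2 fold change -2.09, standard error 0.24). This value was -1.63 against shTWIST1 and -0.45 for shTWIST1 against shControl.

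CD74, the invariant chain, was at 9.69, 9.31 and 9.24 in shTWIST1 + TWIST1 cells, 11.86, 11.79 and 11.66 in shTWIST1 cells, and 11.87, 11.81 and 11.67 in shControl cells. The shTWIST1 and shControl arrays of like number differed by less than 0.1, while the construct arrays were more than 1.9 log2 units below them. CD74 was 5.16-fold lower than in shControl (log2 fold change -2.37, standard error 0.13), at 19.4% of its level. Its values in shTWIST1 and shControl cells were at or above the 99.9th percentile of their arrays, where probe signal can level off, and whether this held the 2 groups together or made the fold too small was not tested. Against shTWIST1 it was 5.13-fold lower (log2 fold change -2.36), and the value was -0.01 for shTWIST1 against shControl.

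HLA-DOA, which encodes the alpha chain of HLA-DO, was not called in any comparison. It was at 3.60, 4.26 and 3.60 in shTWIST1 + TWIST1 cells, 4.43, 4.03 and 4.25 in shTWIST1 cells, and 5.44, 4.43 and 4.53 in shControl cells. The construct arrays were below all shControl arrays but overlapped with shTWIST1. The log2 fold change was -0.98 (standard error 0.29) against shControl, of which the pairs of like number gave -1.84, -0.17 and -0.93, and it was -0.42 against shTWIST1 and -0.56 for shTWIST1 against shControl.

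**Figure D2:**
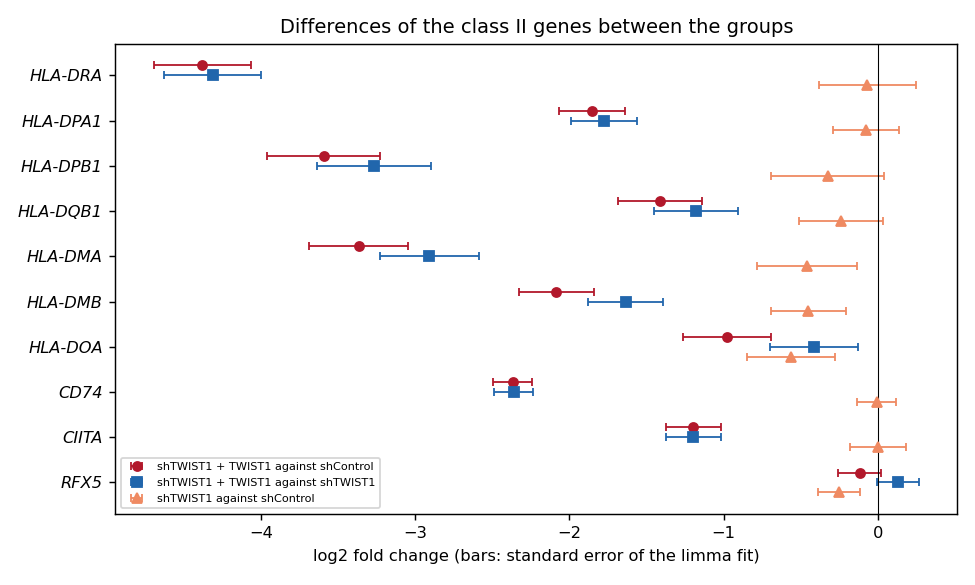
Log2 fold changes (horizontal axis) of the 10 genes in the 3 comparisons, with the standard error of the limma fit as bars. HLA-DRA reaches -4.38 against shControl, RFX5 stays at -0.12, and shTWIST1 against shControl lies between -0.56 and 0.00 for all 10 genes.

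The 2 regulators differed from each other. CIITA was at 4.07, 4.11 and 4.10 in shTWIST1 + TWIST1 cells, 5.54, 5.05 and 5.28 in shTWIST1 cells, and 5.67, 4.99 and 5.22 in shControl cells. The construct arrays were below the other 6, and they lay under the array medians, so that the difference may be understated at the dim end. It was 2.29-fold lower than in shControl (log2 fold change -1.20, standard error 0.18). Likewise it was -1.20 against shTWIST1 and 0.00 for shTWIST1 against shControl. CIITA is transcribed from several promoters in different cell types, and 1 probe set for the gene does not tell them apart.

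RFX5, which recognises the X box and is expressed in most cells, was at 7.46, 7.43 and 7.12 in shTWIST1 + TWIST1 cells, 7.31, 7.37 and 6.94 in shTWIST1 cells, and 7.52, 7.47 and 7.37 in shControl cells. All groups overlapped. Its log2 fold change was -0.12 (standard error 0.14) against shControl and 0.13 against shTWIST1, so its sign differed between the comparisons, and for shTWIST1 against shControl it was -0.25.

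Over the 10 genes, 8 had all 3 shTWIST1 + TWIST1 arrays below the other 6, beside 4.98% of all genes, HLA-DOA and RFX5 being the exceptions. In all 3 pairs of arrays with the same number, shTWIST1 was below shControl for 8 of the 10 genes, beside 15.1% of all genes, though by small amounts, with log2 fold changes between -0.56 and -0.01. The exceptions were HLA-DPA1 and CIITA. Within the rescue group, replicate 3 had the lowest TWIST1 value, 8.27, and it also had the lowest value of HLA-DRA, HLA-DPA1, HLA-DPB1, HLA-DMA, HLA-DMB, CD74 and RFX5.

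The replicate numbers carried a pattern of their own. Replicate 1 was the highest of its group in all 3 groups for 6 of the 10 genes, beside 3.58% of all genes, and replicate 3 was the lowest in all 3 groups for 6 of the 10, beside 4.28%. The median deviation from the group mean over the 10 genes was 0.27, 0.02 and -0.26 for replicates 1, 2 and 3 in shTWIST1 + TWIST1, 0.25, 0.03 and -0.31 in shTWIST1, and 0.37, -0.03 and -0.23 in shControl. Replicate 1 thus lay above and replicate 3 below the group mean in all groups, while replicate 2 lay close to it on either side. What the numbers stand for in the laboratory is not given in the sources used here, and its part in the levels was not tested. With the replicate number as a block the same 8 genes passed against shControl, and 8 rather than 7 passed against shTWIST1, HLA-DQB1 being the added one. In that fit 801 and 1076 of all 19934 genes were called either way.

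**Figure D3:**
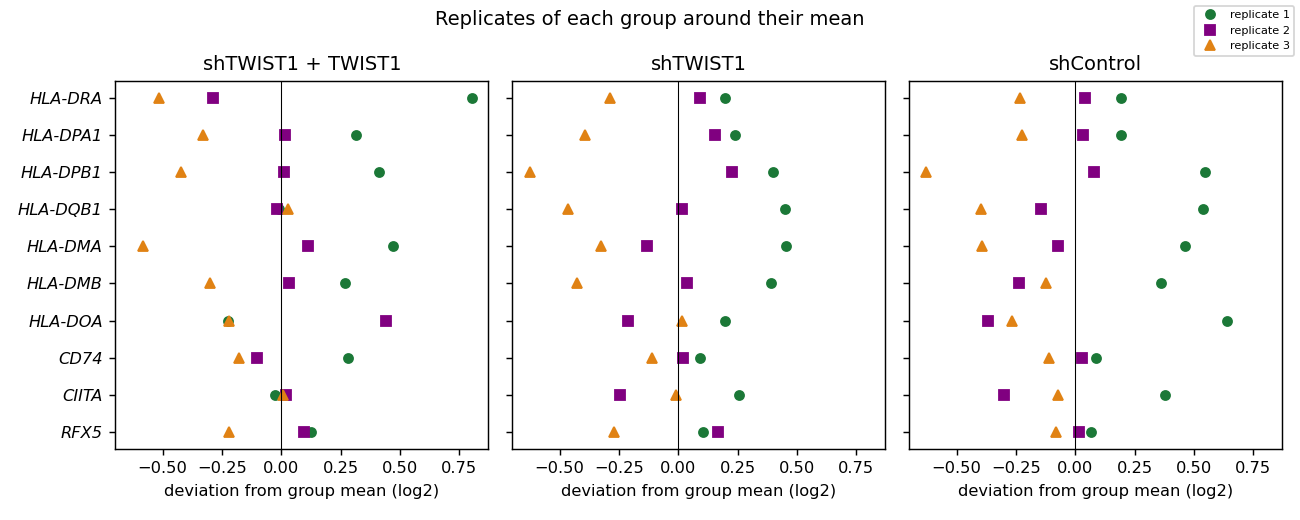
Deviation of each array from its group mean (log2, horizontal axis) for the 10 genes, one panel per group and one symbol per replicate number. The median deviation over the 10 genes is 0.27, 0.25 and 0.37 for replicate 1 and -0.26, -0.31 and -0.23 for replicate 3 in shTWIST1 + TWIST1, shTWIST1 and shControl.

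Most of the listed genes sit in the class II region of chromosome 6. Between HLA-DRA and HLA-DPB1 the RefSeq order holds 18 protein-coding genes, all measured, of which 13 are class II genes and 7 of these are among the 10. The genes of other kinds that stand between them did not follow as a block. TAP2 had a log2 fold change of -0.07 and TAP1 one of -0.13 in shTWIST1 + TWIST1 against shControl, and BRD2, which stands between HLA-DMA and HLA-DOA and encodes a bromodomain protein, had one of 0.26, and none of these passed (limma, adjusted p between 0.375 and 0.840). PSMB9, an interferon-inducible proteasome subunit, did fall (log2 fold change -1.05, adjusted p = 0.0214), while PSMB8, on the other side of TAP1, was at -0.57 (adjusted p = 0.118). CD74 lies on chromosome 5, outside the region, and was 5.16-fold lower.

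**Figure D4:**
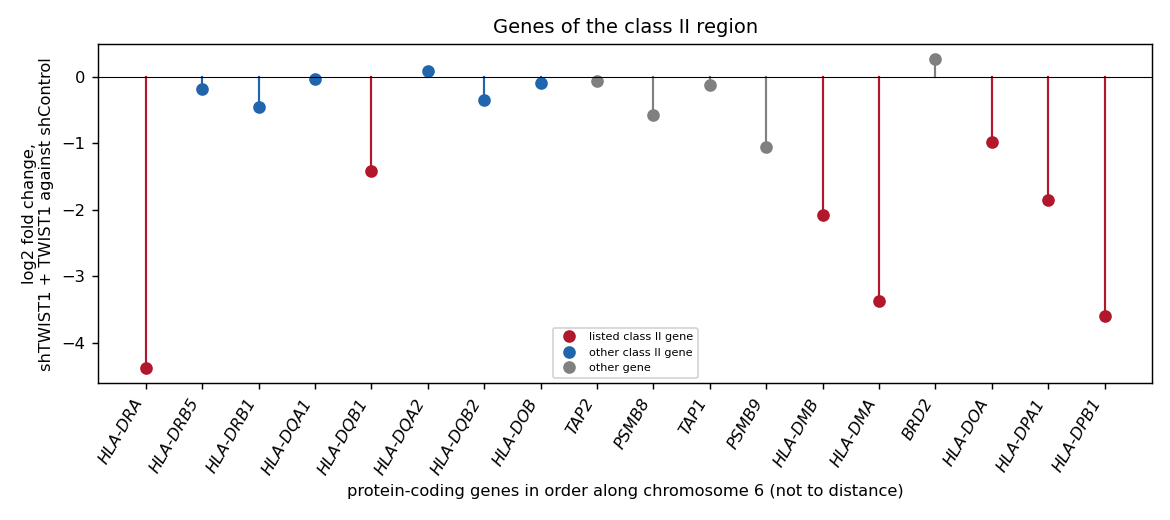
Log2 fold change in shTWIST1 + TWIST1 against shControl (vertical axis) for the 18 protein-coding genes between HLA-DRA and HLA-DPB1, in their order along chromosome 6 and not to distance. The 7 listed class II genes lie between -4.38 and -0.98, and the other genes lie between -1.05 (PSMB9) and 0.26 (BRD2).

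The other class II loci were dim on these arrays. Of 8 such genes 6 were measured, and HLA-DRB3 and HLA-DRB4 were not analysed here. HLA-DRB1, HLA-DRB5, HLA-DQA1, HLA-DQA2, HLA-DQB2 and HLA-DOB were at 3.26 or below on every array, against array medians of at least 4.73. HLA-DRB1 encodes the main partner chain of HLA-DRA. It was at 2.61, 2.80 and 2.54 in shTWIST1 + TWIST1 cells, 3.17, 3.16 and 2.95 in shTWIST1 cells, and 3.01, 3.18 and 3.13 in shControl cells. Its arrays with the construct were the 3 lowest, but the log2 fold changes of -0.45 (standard error 0.10) against shControl and -0.44 against shTWIST1 did not pass (limma, adjusted p = 0.0528 and 0.0501). They passed with the replicate block (adjusted p = 0.0395 and 0.0360), and without shTWIST1 + TWIST1 replicate 2 (0.0368 and 0.0300). Both also passed with median centring, a trended and robust prior or array weights, and over all alternatives the adjusted p ranged between 0.0273 and 0.512 against shControl and between 0.0300 and 0.488 against shTWIST1. HLA-DRB5 gave 2.61 on the same array as HLA-DRB1 in shTWIST1 + TWIST1 replicate 1, and HLA-DQA2 gave 2.69 on all 3 shTWIST1 arrays. Related HLA genes may share probes and their alleles vary, and the probes of these sets are not given in the sources used here, so a low value of such a gene does not show that its RNA was low.

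Of the 47 other genes of the pathway that were measured (of 51 listed), 1 rose and 1 fell in shTWIST1 + TWIST1 against shControl, beside 2.62% of all genes called. Against shTWIST1 2 rose and 2 fell, beside 3.42% of all genes. With the replicate block 6 passed against shControl (2 higher and 4 lower) and 8 against shTWIST1 (3 higher and 5 lower), beside 801 and 1076 of all 19934 genes called either way. None passed for shTWIST1 against shControl (limma, with 3 at an unadjusted p under 0.05, beside 1320 of all 19934 genes, and 0 by the methods' t-test after adjustment). Their median log2 fold change was 0.02, 0.07 and -0.01 in these comparisons, beside 0.02, 0.01 and 0.02 over all genes.

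CTSD, a lysosomal aspartic protease, was the clearest of them. It was at 7.82, 7.75 and 7.38 in shTWIST1 + TWIST1 cells, 9.23, 9.07 and 8.96 in shTWIST1 cells, and 9.05, 8.88 and 8.73 in shControl cells. The construct arrays were the 3 lowest. It fell 2.35-fold against shControl (log2 fold change -1.23, standard error 0.14, limma, adjusted p = 0.00332) and 2.71-fold against shTWIST1 (adjusted p = 0.00128), and passed with each array left out in turn.

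MARCHF8, a membrane-bound ubiquitin ligase known to send class II molecules for degradation, moved the other way. It was at 4.36, 4.89 and 4.13 in shTWIST1 + TWIST1 cells, 3.49, 3.53 and 3.18 in shTWIST1 cells, and 3.34, 3.49 and 3.40 in shControl cells. The construct arrays were the 3 highest, and the other groups overlapped at dim values. It rose by a log2 fold change of 1.05 (standard error 0.18) against shControl (limma, adjusted p = 0.0253) and 1.06 against shTWIST1 (adjusted p = 0.0200). The call against shControl was lost without shTWIST1 + TWIST1 replicate 1, shTWIST1 replicate 1 or any shControl array (adjusted p between 0.0516 and 0.100), and that against shTWIST1 without shTWIST1 + TWIST1 replicate 1 or shTWIST1 replicate 1 or 3 (adjusted p between 0.0535 and 0.0734).

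Among the 10 promoter factors, 1 passed. KAT2B, an acetyltransferase that works with CIITA, was at 6.72, 6.76 and 6.48 in shTWIST1 + TWIST1 cells, 8.10, 8.05 and 7.40 in shTWIST1 cells, and 7.87, 7.65 and 7.31 in shControl cells. It fell against shTWIST1 (log2 fold change -1.20, standard error 0.21, limma, adjusted p = 0.0209), a call lost without shTWIST1 + TWIST1 replicate 1 or 3 or shTWIST1 replicate 1 or 2 (adjusted p between 0.0553 and 0.0887). Against shControl its log2 fold change was -0.96 (adjusted p = 0.0574, and 0.00645 with the replicate block). The partners of RFX5 in the RFX complex, RFXANK and RFXAP, had log2 fold changes of 0.02 and 0.25 against shControl, and the NF-Y subunits NFYA, NFYB and NFYC had 0.10, 0.10 and 0.01, none of which passed.

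The interferon gamma route, which induces CIITA in many cell types, had 10 measured genes. IFNGR2, a chain of the interferon gamma receptor, was at 10.18, 10.56 and 10.02 in shTWIST1 + TWIST1 cells, 9.40, 9.69 and 9.40 in shTWIST1 cells, and 9.56, 9.93 and 9.81 in shControl cells. It rose against shTWIST1 (log2 fold change 0.76, standard error 0.16, limma, adjusted p = 0.0408), but its call was lost with 6 of the 9 arrays left out one at a time, namely shTWIST1 + TWIST1 replicate 1 or 2, shTWIST1 replicate 1 or 3 and shControl replicate 2 or 3 (adjusted p between 0.0579 and 0.139). Against shControl the construct arrays were all above, with a log2 fold change of 0.49 (adjusted p = 0.197, and 0.0478 with the replicate block). IRF1, a transcription factor that acts on CIITA, was at 4.81, 4.59 and 4.47 in shTWIST1 + TWIST1 cells, 6.19, 4.88 and 5.69 in shTWIST1 cells, and 5.61, 5.20 and 5.26 in shControl cells. It did not pass in either comparison, with log2 fold changes of -0.96 against shTWIST1 and -0.73 against shControl (standard error 0.29 in each). PRDM1, a repressor of CIITA, was at 4.85, 3.91 and 5.30 in shTWIST1 + TWIST1 cells, 6.48, 5.11 and 6.75 in shTWIST1 cells, and 5.85, 4.48 and 5.70 in shControl cells, with replicate 2 the lowest in each group. It did not pass either, with log2 fold changes of -1.43 against shTWIST1 and -0.66 against shControl (standard error 0.55 in each). That fit had no replicate block, so its standard error includes the spread between replicate numbers. Pairs of like number gave PRDM1 differences of -1.63, -1.20 and -1.45 against shTWIST1, and every pair against shControl was negative too. The result of PRDM1 with the replicate block is not given here. CTSS, of the endosomal processing genes, and ICAM1, of the costimulation genes, rose against shTWIST1 but did not pass. Their log2 fold changes were 1.23 and 1.25 (standard errors 0.34 and 0.42), and 0.31 and 0.89 against shControl. IRF1, PRDM1, CTSS and ICAM1 are named here after their values were seen. None of the 7 costimulation genes measured passed in any comparison.

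Class I presentation, which displays peptides to CD8+ T cells, was read beside the class II genes. Of 11 genes measured, 3 fell in shTWIST1 + TWIST1 against shControl and 2 against shTWIST1, beside 1.55% and 1.77% of all genes called lower, with median log2 fold changes of -0.50 and -0.23. HLA-B, a classical class I heavy chain, was at 8.29, 8.75 and 8.50 in shTWIST1 + TWIST1 cells, 9.41, 9.46 and 9.28 in shTWIST1 cells, and 9.69, 9.98 and 9.43 in shControl cells. The construct arrays were the 3 lowest. It fell against shControl (log2 fold change -1.19, standard error 0.16, limma, adjusted p = 0.00742) and against shTWIST1 (log2 fold change -0.87, adjusted p = 0.0240), though against shTWIST1 it no longer passed when shTWIST1 + TWIST1 replicate 1 or 3 or any shTWIST1 array was left out (adjusted p between 0.0602 and 0.0953).

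PSMB9 was at 7.00, 7.23 and 7.32 in shTWIST1 + TWIST1 cells, 8.25, 7.94 and 7.95 in shTWIST1 cells, and 8.60, 8.20 and 7.91 in shControl cells. The construct arrays were again the lowest. Its fall against shTWIST1 was -0.86 (limma, adjusted p = 0.0389), lost without any 1 of 7 arrays, namely all those of shTWIST1 + TWIST1 and shTWIST1 and shControl replicate 2 (adjusted p between 0.0637 and 0.132), and that against shControl was lost without shTWIST1 + TWIST1 replicate 1 or shControl replicate 2 (adjusted p between 0.0660 and 0.0734). HLA-F, a nonclassical class I gene, had a log2 fold change of -0.69 against shControl (limma, adjusted p = 0.0336), and its call was lost without any 1 array except shControl replicate 3 (adjusted p between 0.0511 and 0.103).

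**Figure D5:**
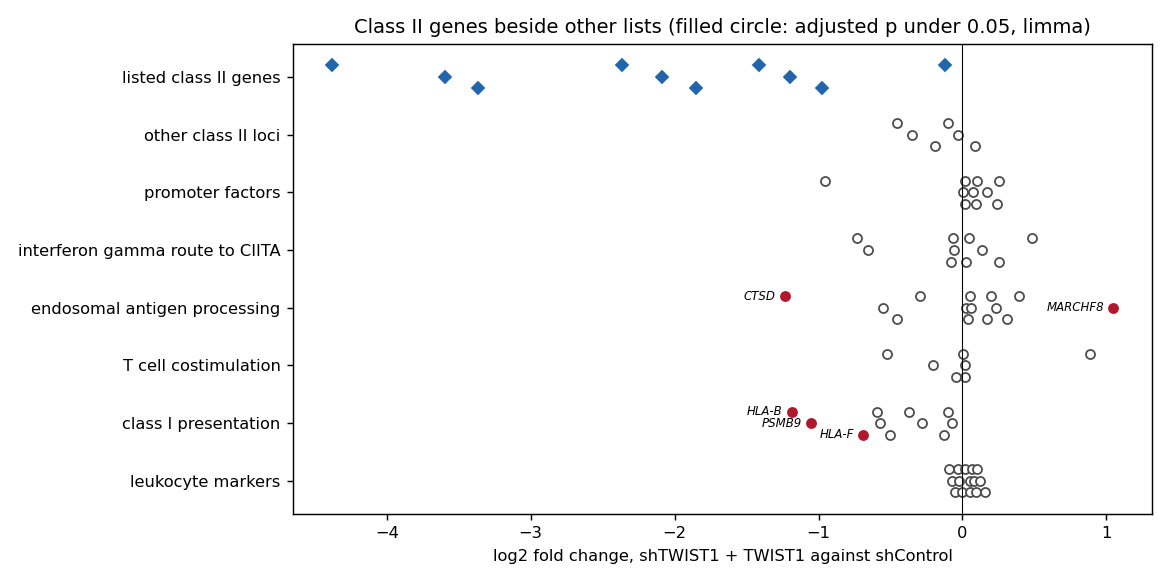
Log2 fold change in shTWIST1 + TWIST1 against shControl (horizontal axis) of each gene of 8 lists, with diamonds for the 10 listed class II genes, for which no test is shown, and filled circles for other genes that passed the limma threshold. CTSD (-1.23), HLA-B (-1.19), PSMB9 (-1.05) and HLA-F (-0.69) fell and MARCHF8 (1.05) rose, while the leukocyte markers lie near 0.

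Since class II is carried by leukocytes, markers of these cells were read beside the result. Of 16 markers 15 were measured, all 15 averaged below the array medians in each group, and none was called. The highest of them was TYROBP, at 4.05, 3.97 and 3.90 in shTWIST1 + TWIST1, shTWIST1 and shControl. Their summed level on the log2 scale was 6.82 to 6.96, 6.88 to 7.02 and 6.83 to 6.85 in the same groups. Keratinocyte and endothelial markers, of which 7 were measured, had 6 below the array medians in each group, and none was called. Of 9 melanocyte and neural crest markers measured, 3 fell with the construct against shControl and 2 against shTWIST1, and the others were not called. These counts stand beside 1.55% and 1.77% of all genes called lower. S100B and ERBB3 fell in both comparisons, with log2 fold changes of -2.38 and -2.14 against shControl. S100A1, called against shControl only, had a log2 fold change of -2.30 for shTWIST1 against shControl (not called) and 0.13 for shTWIST1 + TWIST1 against shTWIST1. The summed level of the 9 was 9.62 to 9.92 in shTWIST1 + TWIST1, 10.97 to 11.10 in shTWIST1 and 11.33 to 11.63 in shControl cells. Bright genes weigh most in this sum, the highest being S100B in shTWIST1 and shControl cells and SOX10 in shTWIST1 + TWIST1 cells. In each group 3 of the 9 were below the array medians. The part of the summed level in the class II values was not tested. In RNA from bulk cells, fewer cells expressing class II and less of its RNA per cell cannot be told apart.

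The genes whose pattern over the 9 arrays was most like that of HLA-DRA were sought among 453 genes whose values spanned at least 2 log2 units. Outside the 10 listed genes, the highest Pearson r was 0.990 for FBXO32, a subunit of a ubiquitin ligase, followed by 0.990 for SLC35F1, 0.985 for OLFML2A, 0.984 for LGALS3BP, a secreted glycoprotein, and 0.983 for ANK3, an ankyrin. FBXO32 was at 5.62, 5.51 and 5.37 in shTWIST1 + TWIST1 cells, 7.56, 7.45 and 7.08 in shTWIST1 cells, and 7.59, 7.42 and 7.19 in shControl cells. It showed the same high and low arrays as HLA-DRA. Of the listed genes, CD74 had r = 0.998, HLA-DPA1 0.987, HLA-DPB1 0.984, HLA-DMA 0.983, HLA-DMB 0.959, CIITA 0.934, HLA-DQB1 0.899, HLA-DOA 0.626 and RFX5 0.0919. These are descriptions over 9 arrays that fall into 2 clusters, with and without the construct. A gene that is clearly lower with the construct and alike on the other 6 arrays therefore has a high r.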

How the data were processed

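Arrays of 9 samples in 3 groups were compared. The authors deposited log2 expression values made with RMA (background correction, quantile normalization and median polish), whose version is not given in the sources used here. The array and its probe definition are not named there either, and arrays give no read depth, so the number of arrays limits the precision. The probe sets numbered 20673, of which 19935 were paired with 1 symbol. For a gene with more than 1 probe set the brighter one on average was used, giving 19934 genes. Array medians were 4.73 to 4.79.

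The groups were fitted together with limma 3.58.1 in R 4.3.3 without a block, with Benjamini-Hochberg adjustment over all genes (threshold 0.05). The methods of the study give a t-test of unequal variance for experiments in general, which was run as an alternative. The test was checked on simulated data. The genes and lists were chosen with earlier results of these data known. Genes were named by rule, namely the 10 genes and TWIST1, every called gene of a list up to 4 per direction, all other class II loci, and the 5 genes most like HLA-DRA. RFX partners, NF-Y subunits, IRF1, PRDM1, CTSS, ICAM1, the named cell type markers and the genes of the class II region were named beside that rule.

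Deviations from the group means correlated between arrays of like replicate number at 0.142, 0.296 and 0.304 for shTWIST1 + TWIST1 with shTWIST1, at 0.322, 0.508 and 0.288 for shTWIST1 with shControl, and at 0.0321, 0.216 and 0.107 for shTWIST1 + TWIST1 with shControl. All exceeded 0.1 in the first pairs of groups and not in the last. The main fit used no pairing in any comparison, and the replicate block was run as an alternative. Tables were made in Python 3.11.15 with pandas 2.3.3.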

Additional observations from a re-analysis of the deposited data

How the results depend on the processing

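The class II counts of 8 against shControl and 7 against shTWIST1 stayed at 7 to 8 and 7 to 8 with each array left out in turn, and shTWIST1 against shControl stayed at 0. Among the 10 genes only the call of HLA-DQB1 came or went under the other settings, apart from the methods' t-test. Run at 3 arrays a group, this test left 0 of the 10 after adjustment in each comparison with the construct. Of all 19934 genes it left only 3 and 2. At an unadjusted p of at most 0.05 by the same test, 8 and 8 of the 10 stood beside 1588 and 1669 of all genes. For the 47 other pathway genes, the count against shControl was 6 with the replicate block, 1 with only the 6 arrays compared and 0 with the t-test, and 1 to 4 with an array left out. Against shTWIST1 it was 8 with the replicate block, 1 with only 6 arrays and 0 with the t-test, and 1 to 5 with an array left out. Over all genes, the block, 6 arrays and t-test called 801, 260 and 3 against shControl and 1076, 353 and 2 against shTWIST1. The cause was not tested. No log2 fold change of a called gene changed sign. Values under the array median with the construct (HLA-DQB1, HLA-DOA, CIITA, and HLA-DPB1 in replicate 3) and at the bright end without it (CD74, HLA-DRA, HLA-DPA1) may limit the size of the change that the arrays can show.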
